A study of Homo sapiens with 24 samples.

Results

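The zinc finger cluster at the end of the long arm of chromosome 19 (band 19q13.4) was examined through its annotated long non-coding RNA (lncRNA) intervals in HEK293 cells that overexpressed a lamin or a green fluorescent protein. An interval was included if the deposited small RNA table classed it as lncRNA, placed its start on chromosome 19 at or beyond base 52000000, gave it a span of at most 200000 bp and named it with the prefix lnc-, NONHSAG or HSALNG. This rule took 608 of the 175946 intervals in the table, and the same 608 were followed in the ATAC-seq table. They carry 350 names, begin at 52003756 and end at 58599460, and merge into 249 non-touching loci because many are alternative or nested models of the same stretch. Their spans run from 252 to 151910 bp with a median of 3423 bp. The region was selected on the small RNA counts of these same libraries in LMNB2 against GFP. That contrast, and the others that use the LMNB2 small RNA libraries, are given below as a description, and they support nothing beyond themselves.

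HEK293 is an established line derived from human embryonic kidney. All groups carried the genotype label Wild Type and differed in the protein overexpressed: eGFP (called GFP here, the control), LMNA, LMNB1 or LMNB2. Each group had 3 small RNA-seq and 3 ATAC-seq libraries, 24 in all. Cells for the small RNA libraries were collected apart from those for ATAC-seq, and the batch label is 1 for every small RNA library and 2 for every ATAC library. The labels give neither the vector nor the time after its delivery, and do not say whether replicates were separate cultures, so the p-values measure the spread between these libraries, which may be technical. Small RNA libraries held 132.5 to 195.1 M (mega) counts and ATAC libraries 156.0 to 290.2 M, of which 24.5 to 47.5% were mitochondrial. All 608 intervals together received 6738 to 17220 counts in a small RNA library and 310275 to 553797 in an ATAC library. As a check of the labels, intervals over the overexpressed gene itself were higher than in GFP for 8 of 8 tested small RNA intervals in LMNB2 and 3 of 5 in LMNB1. In LMNA the 1 tested small RNA interval was not called, while 1 of 6 ATAC windows over LMNA was. Of the tested ATAC windows over LMNB1 3 of 8 were called in LMNB1, and of those over LMNB2 2 of 8 in LMNB2.

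Lamins are intermediate filament proteins that form a mesh under the inner nuclear membrane and contact compact chromatin there. The long arm of chromosome 19 ends in dense arrays of genes for KRAB zinc finger proteins, DNA-binding repressors many of which recognise transposable elements and recruit the corepressor encoded by TRIM28, a gene that lies in the same region. These arrays are known for repressive histone marks over the gene bodies while the promoters stay open. lncRNA models are numerous here, and most carry the symbol of a neighbouring protein-coding gene, not a function of their own. The title of the series concerns transcription by RNA polymerase III and its relation to the 3D epigenome, and the comparisons ask how the lncRNA intervals responded to each lamin.

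Of the 608 intervals, 236 were named after a zinc finger gene, 248 had another lnc- name, 87 a NONHSAG name and 37 an HSALNG name. By RefSeq gene spans, 325 overlapped a zinc finger gene, 27 an immune receptor gene, 6 an NLRP gene, 4 only a microRNA, 192 another gene and 54 none. A protein-coding gene was overlapped by 453 of them. By annotated strand, 266 were on the plus strand and 342 on the minus strand. A complete RefSeq promoter window, from 250 bases before to 50 bases after a gene start, lay within the ATAC window of 142 intervals, which reaches slightly beyond the interval, and these promoter windows belong to 69 genes.

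The promoter windows below lie in, or at the end of, the 6 intervals described first further on, and are shown because they mark gene starts that those intervals hold. They are RefSeq sequences of build GRCh38.p14, written 5′ to 3′ on the strand of the gene, and CG dinucleotides are in capitals. The ZNF841 window (chr19:52095716-52096015, minus strand) and the ZNF616 window (chr19:52139889-52140188, minus strand) fall in lnc-ZNF836-1, the ZNF83 window (chr19:52638306-52638605, minus strand) in lnc-ZNF83-2, and the ZNF614 window (chr19:52028330-52028629, minus strand) in NONHSAG026393.2. The ZSCAN22 window (chr19:58326744-58327043, plus strand) falls in lnc-A1BG-2, and the ZNF470 window (chr19:56567218-56567517, plus strand) overlaps the end of lnc-ZNF667-2. The only window in lnc-ZNF417-3 belongs to the uncharacterised gene LOC124904782 (chr19:57858527-57858826, minus strand).
ZNF841: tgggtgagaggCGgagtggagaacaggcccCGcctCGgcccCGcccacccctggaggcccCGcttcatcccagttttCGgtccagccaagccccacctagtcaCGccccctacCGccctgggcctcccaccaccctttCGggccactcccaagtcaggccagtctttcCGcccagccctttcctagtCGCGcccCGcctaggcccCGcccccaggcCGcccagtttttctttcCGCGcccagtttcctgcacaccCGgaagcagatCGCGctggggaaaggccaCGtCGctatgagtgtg
ZNF616: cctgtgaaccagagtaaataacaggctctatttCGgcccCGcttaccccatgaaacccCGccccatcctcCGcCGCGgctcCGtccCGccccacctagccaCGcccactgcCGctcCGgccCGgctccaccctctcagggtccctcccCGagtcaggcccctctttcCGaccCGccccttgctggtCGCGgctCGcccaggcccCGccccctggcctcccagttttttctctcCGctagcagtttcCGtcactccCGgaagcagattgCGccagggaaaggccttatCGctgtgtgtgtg
ZNF83: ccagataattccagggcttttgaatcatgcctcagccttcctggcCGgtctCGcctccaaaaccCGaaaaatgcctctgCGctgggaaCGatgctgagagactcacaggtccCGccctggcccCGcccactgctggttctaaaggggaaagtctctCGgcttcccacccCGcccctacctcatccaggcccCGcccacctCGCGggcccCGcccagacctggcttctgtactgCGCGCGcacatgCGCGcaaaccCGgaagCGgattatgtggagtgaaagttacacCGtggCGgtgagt
ZNF614: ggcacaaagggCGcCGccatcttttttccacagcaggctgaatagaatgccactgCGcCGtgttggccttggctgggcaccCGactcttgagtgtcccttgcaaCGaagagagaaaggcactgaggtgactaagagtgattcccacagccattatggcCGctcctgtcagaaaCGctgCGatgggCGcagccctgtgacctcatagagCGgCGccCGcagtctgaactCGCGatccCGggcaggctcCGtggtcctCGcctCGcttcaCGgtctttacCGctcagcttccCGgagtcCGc
ZSCAN22: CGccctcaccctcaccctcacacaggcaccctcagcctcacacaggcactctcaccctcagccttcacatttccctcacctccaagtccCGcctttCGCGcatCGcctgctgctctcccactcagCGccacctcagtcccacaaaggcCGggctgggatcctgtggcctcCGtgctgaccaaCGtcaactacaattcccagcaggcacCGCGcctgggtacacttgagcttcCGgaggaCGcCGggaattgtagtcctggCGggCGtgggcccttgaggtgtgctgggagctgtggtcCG
ZNF470: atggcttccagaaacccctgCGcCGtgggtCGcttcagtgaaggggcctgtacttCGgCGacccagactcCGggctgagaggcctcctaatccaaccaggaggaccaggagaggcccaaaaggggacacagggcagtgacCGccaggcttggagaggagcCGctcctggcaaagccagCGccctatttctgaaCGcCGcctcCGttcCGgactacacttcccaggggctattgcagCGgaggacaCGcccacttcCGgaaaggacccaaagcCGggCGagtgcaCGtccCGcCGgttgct
LOC124904782: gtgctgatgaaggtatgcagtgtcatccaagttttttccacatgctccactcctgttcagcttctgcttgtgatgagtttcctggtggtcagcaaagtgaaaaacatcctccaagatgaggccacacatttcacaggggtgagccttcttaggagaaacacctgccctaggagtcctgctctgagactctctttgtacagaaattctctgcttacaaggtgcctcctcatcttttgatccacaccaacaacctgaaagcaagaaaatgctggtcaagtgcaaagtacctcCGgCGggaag

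The 6 printed windows of zinc finger genes hold 17 (ZSCAN22) to 24 (ZNF616) CG dinucleotides each, and the LOC124904782 window holds 2. A second ZNF841 window in lnc-ZNF836-1 (chr19:52094222-52094521) holds 6 and the window of LOC124904755 in NONHSAG026393.2 (chr19:52017848-52018147) holds 0, and neither is printed. The median was 14 over all 35116 RefSeq promoter windows, and 20 both over the 296 windows of the region and over the 27 inside intervals called in LMNB2. The B box of internal RNA polymerase III promoters was searched on both strands by its consensus, with any base at the variable positions. It was found in 65 of all windows (0.185%), in 2 of the 296 of the region and in 0 of those 27, which says only that the consensus is not in these windows.

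In small RNA-seq the intervals were low in every group. The median interval had a mean of 2.667 counts per library, and 31 of the 608 had no count in any of the 12 libraries. The filter on low counts left 173 intervals from 68 loci for testing, and the other 435 are not covered by the tests below. Of the 173, 39 would not have passed without the 3 LMNB2 libraries, so the tested intervals are no neutral sample of the region and an excess in LMNB2 among those 39 is partly set by the filter. Counts were found for 412 to 447 of the 608 in the GFP, LMNA and LMNB1 libraries and for 488 to 502 in the LMNB2 libraries.

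The summed small RNA level of the region was higher in LMNB2. Over 606 intervals, leaving out a pair that hold a 5S ribosomal RNA copy, the CPM (counts relative to a library's total in M, scaled by edgeR's TMM factors) summed to 25.83, 26.58 and 25.83 in the GFP libraries, 24.93, 25.1 and 25.44 with LMNA, 26.05, 24.98 and 26.52 with LMNB1, and 40.87, 45.06 and 45.61 with LMNB2. The LMNB2 libraries lay above all the others. The LMNA libraries lay just below the GFP libraries, and those of LMNB1 overlapped both. The group means were 26.1 ± 0.433 (GFP), 25.2 ± 0.260 (LMNA), 25.9 ± 0.789 (LMNB1) and 43.9 ± 2.59 (LMNB2, SD, n = 3), with nested intervals counted more than once. In ATAC-seq the same sum was 1829 ± 127 (GFP), 1845 ± 42.3 (LMNA), 1830 ± 76.9 (LMNB1) and 1782 ± 59.3 (LMNB2), differences smaller than the spread between the GFP libraries.

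**Figure D1:**
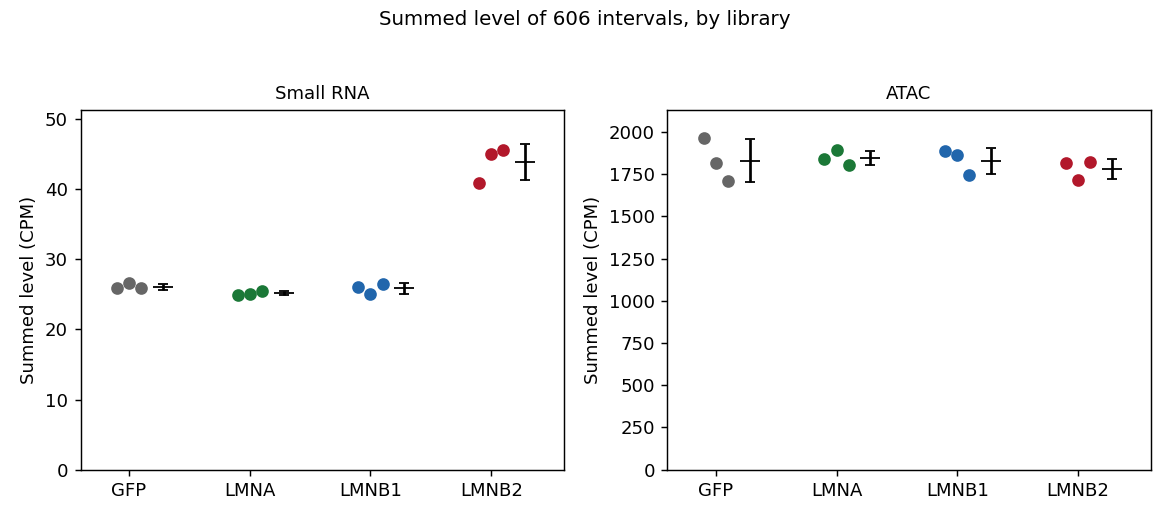
Summed level of 606 intervals (CPM, axes from 0) in each library of the 4 groups, small RNA on the left and ATAC on the right. Points are libraries, and the dash with its bar is the mean ± SD (n = 3). The LMNB2 small RNA libraries sit at 40.87 to 45.61 and all other small RNA libraries at 24.93 to 26.58, while the ATAC groups overlap.

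In LMNB2 against GFP, 37 of the 173 tested intervals were called higher and 0 lower at an adjusted p under 0.05 (edgeR's quasi-likelihood test on all 33893 tested features, Benjamini-Hochberg adjustment). Of all features tested, 1.91% were called higher and 0.752% lower. At an unadjusted p under 0.05 there were 90, beside 19.9% of all features. Nothing is read from these counts, since the region was chosen with this contrast known. The 37 lie in 18 loci under 24 names, and 5 of them are among the 39 that needed the LMNB2 libraries to be tested. The median log2 fold change of the tested intervals was 0.66, beside −0.04 over all features. It was 0.57 over the 134 that passed the filter without LMNB2, of which 124 were above 0. In 98 of the 173 all LMNB2 libraries lay above all GFP libraries, 56.6% beside 12.1% of all features. The number of calls depended on single libraries: it was 3 without LMNB2 replicate 2, 5 without LMNB2 replicate 3, 19 without LMNB2 replicate 1 and 22 without GFP replicate 2, while the median log2 fold change stayed between 0.63 and 0.76 whichever library was left out. Fitting only the GFP and LMNB2 libraries left 3 calls.

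In LMNA and LMNB1 against GFP, 0 of the 173 were called in either direction by edgeR's quasi-likelihood test, and 0 by DESeq2. Of all features, 0.0% were called higher in LMNA, and 0.0384% higher and 0.0% lower in LMNB1. At an unadjusted p under 0.05 there were 5 intervals in LMNA and 5 in LMNB1, against 5.46% and 5.51% of all features. The lowest adjusted p values (edgeR) were 0.882 and 0.777. The median log2 fold change was −0.01 in both, with the middle of the distribution (5th to 95th percentile) from −0.50 to 0.52 in LMNA and from −0.52 to 0.56 in LMNB1, and a median standard error (SE) of 0.35. The 3 lamin contrasts share the GFP libraries.

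LMNB2 was also set directly against the other lamins. Against LMNA, 43 tested intervals were called higher and 0 lower (edgeR, as above), where 1.74% of all features were higher and 0.268% lower. Against LMNB1, 45 were higher and 0 lower, where 1.82% and 0.366% of all features were. Of the 37 intervals higher than in GFP, 32 were also higher than in LMNA, 31 than in LMNB1 and 28 than in both. LMNB1 and LMNA did not separate, with 0 calls (0.0118% of all features higher, 0.0% lower) and 4 intervals at an unadjusted p under 0.05 (5.74% of all features). A joint edgeR test of the 4 groups called 38 intervals (1.68% of all features), and one of the 3 lamins called 48 (1.93%). The joint calls over 4 groups numbered 3, 4 and 12 without LMNB2 replicates 2, 3 and 1, 21 without LMNA replicate 1, 23 to 24 when an LMNB1 library was dropped, and 68 without the third GFP library. Those over the lamins numbered 7, 8 and 19 without LMNB2 replicates 2, 3 and 1, 24 without LMNA replicate 1 and 18 to 20 without an LMNB1 replicate. The comparisons with LMNB2 and the joint tests share the LMNB2 libraries on which the region was selected, and are not independent of one another. They also share the 173 tested intervals, 39 of which needed those libraries to pass the filter. Nothing is read from their counts either.

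**Figure D2:**
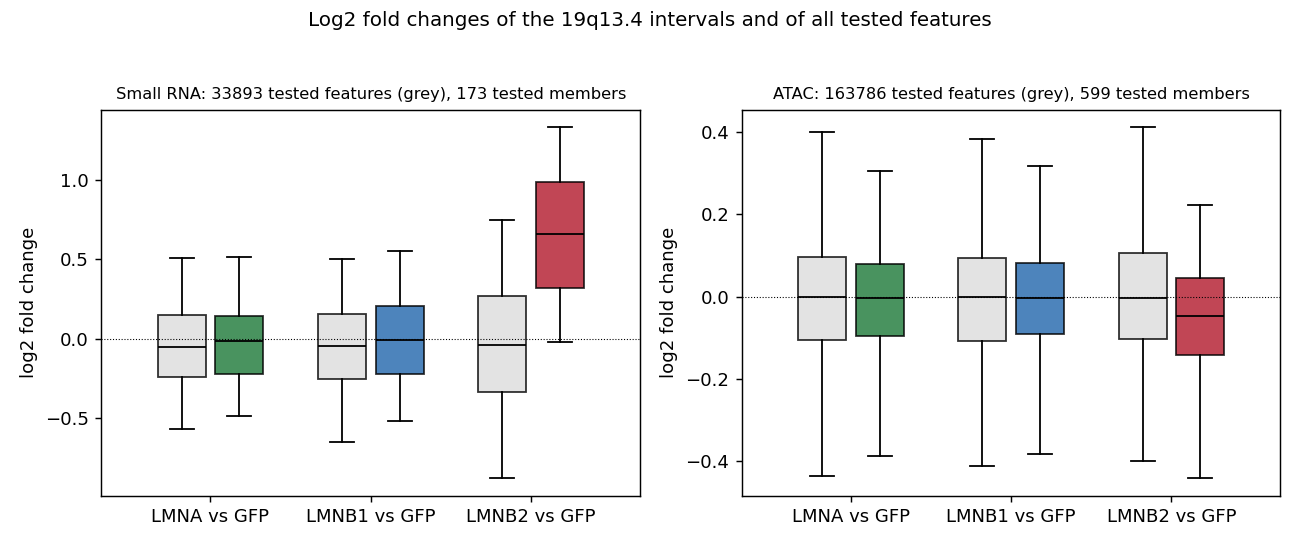
Log2 fold change against GFP for each lamin, in small RNA (left, 33893 tested features and 173 tested intervals of the region) and ATAC (right, 163786 windows and 599 intervals). Boxes span the quartiles with the median as a line, whiskers reach the 5th and 95th percentiles, grey is all tested features and colour is the region. In small RNA the LMNB2 box of the region has a median of 0.66 and the other medians lie within 0.05 of 0, and in ATAC the medians of the region are −0.05 in LMNB2 and 0.00 in LMNA and LMNB1.

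The intervals with the lowest p in LMNB2, at most 1 per locus and among those of at least the median level of all tested features, overlap zinc finger genes throughout. lnc-ZNF417-3 (chr19 from 57858118 to 57860664, minus strand) lies over ZNF587, which encodes a KRAB zinc finger protein. Its small RNA level was 0.129, 0.132 and 0.169 CPM in the GFP libraries, 0.131, 0.159 and 0.17 with LMNA, 0.163, 0.184 and 0.139 with LMNB1 and 0.392, 0.441 and 0.476 with LMNB2. These rest on 15, 18 and 30 counts in GFP and 65, 69 and 67 in LMNB2. Every LMNB2 library was above every other library, and the log2 fold change against GFP was 1.51 ± 0.20 (SE), beside 0.07 ± 0.22 for LMNA and 0.14 ± 0.22 for LMNB1. It is the shortest of the 6 (2546 bp). At the same locus lnc-ZNF814-2, starting at 57848705, and lnc-ZNF814-1 intervals starting at 57868510 and 57878453 were also called.

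lnc-ZNF836-1 (52064702 to 52171646, minus strand) spans ZNF616, ZNF836 and ZNF841, which encode C2H2 zinc finger proteins, and a U13 small nucleolar RNA interval. Its level was 0.464, 0.478 and 0.428 CPM in the GFP libraries, 0.467, 0.345 and 0.497 with LMNA, 0.501, 0.379 and 0.464 with LMNB1 and 1.07, 1.22 and 1.03 with LMNB2, from 54, 65 and 76 counts in GFP and 177, 191 and 145 in LMNB2. The means were 0.457 ± 0.0256 CPM in GFP and 1.11 ± 0.102 in LMNB2 (SD, n = 3), a log2 fold change of 1.26 ± 0.17 (SE). The groups other than LMNB2 overlapped. The ZNF841 and ZNF616 windows printed above lie in it. Its locus holds 6 called intervals linked by overlap, which share reads and are no further evidence.

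lnc-ZNF83-2 (52618686 to 52690521, minus strand) lies over ZNF83, another C2H2 zinc finger gene. Its level was 0.163, 0.0882 and 0.13 CPM in the GFP libraries, 0.193, 0.145 and 0.123 with LMNA, 0.127, 0.239 and 0.122 with LMNB1 and 0.404, 0.397 and 0.469 with LMNB2. LMNB1 replicate 2 was the highest outside LMNB2 and still below each LMNB2 library. The log2 fold changes were 1.65 ± 0.27 in LMNB2, 0.33 ± 0.30 in LMNB1 and 0.26 ± 0.30 in LMNA. NONHSAG026393.2 (52015615 to 52034602, plus strand), over ZNF432 and ZNF614, went from 0.137, 0.198 and 0.208 CPM in GFP to 0.44, 0.384 and 0.391 in LMNB2, a log2 fold change of 1.09 ± 0.21. Its LMNA levels of 0.168, 0.235 and 0.17 and LMNB1 levels of 0.157, 0.129 and 0.191 overlapped those of GFP. Leaving out any 1 LMNB2 library, or scaling by total counts only, ended its call.

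lnc-ZNF667-2 (56544902 to 56567489, minus strand) covers ZFP28, a KRAB zinc finger gene, and the start of ZNF470. Its levels were 0.0773, 0.132 and 0.107 CPM in the GFP libraries, 0.112, 0.124 and 0.17 with LMNA, 0.0846, 0.122 and 0.0986 with LMNB1 and 0.247, 0.243 and 0.327 with LMNB2, and its log2 fold change in LMNB2 was 1.25 ± 0.26. lnc-A1BG-2 (58305936 to 58327266, minus strand) covers the endogenous retroviral gene ERVK3-1 and the start of ZSCAN22, a SCAN domain zinc finger gene. It had 0.275, 0.257 and 0.259 CPM in the GFP libraries, 0.255, 0.235 and 0.257 with LMNA, 0.29, 0.275 and 0.273 with LMNB1 and 0.416, 0.537 and 0.519 with LMNB2. The 3 groups other than LMNB2 differed little here (SD of 0.00928 to 0.0125 CPM), and the log2 fold change in LMNB2 was the smallest of the 6, 0.86 ± 0.16. Without LMNB2 replicate 2 or 3 the calls of both intervals were lost. The locus of lnc-A1BG-2 has 7 called intervals on both annotated strands. NONHSAG026716.2 from 58305356, annotated on the plus strand, had 29, 29 and 37 counts in GFP where lnc-A1BG-2 on the minus strand had 32, 35 and 46, so overlapping intervals on opposite strands had similar counts.

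**Figure D3:**
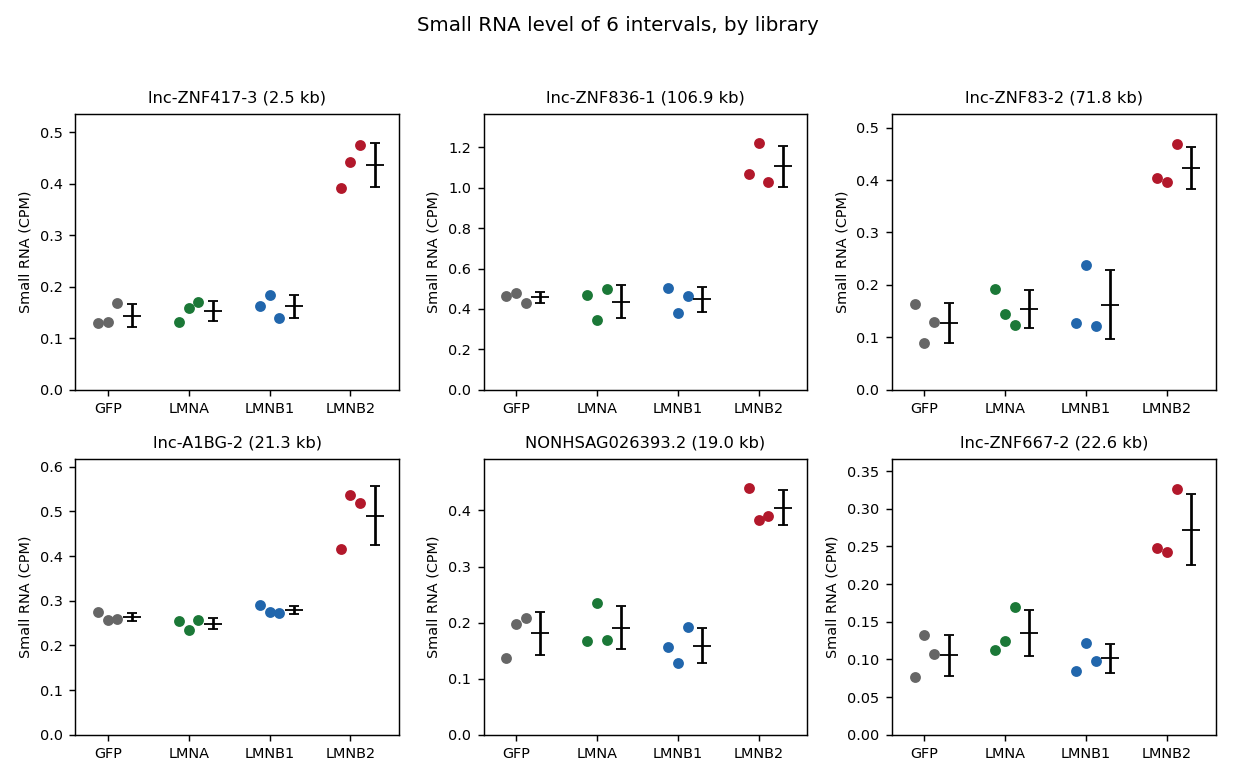
Small RNA level (CPM, axes from 0) of the 6 intervals in each library. Points are libraries and the dash with its bar is the mean ± SD (n = 3), with the span of the interval in the panel title. In each panel the LMNB2 points lie above every other point, as in lnc-ZNF836-1, where they sit at 1.03 to 1.22 CPM against at most 0.501 elsewhere.

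The log2 fold changes of the 37 called intervals ran from 0.71 to 2.32 with a median of 1.14, and in each of the 37 the LMNB2 libraries lay above the GFP libraries. In LMNA their median was 0.03 (−0.48 to 1.09) and in LMNB1 0.03 (−0.40 to 0.70). GFP counts of single libraries ran from 1 to 90 and LMNB2 counts from 10 to 191. The largest fitted change was in lnc-RPL28-1 (55409525 to 55426561), over the uncharacterised gene LOC105372462, which had 1, 4 and 4 counts in GFP and 19, 32 and 21 in LMNB2. lnc-ZNF606-1 (58012256 to 58025184), over a vomeronasal receptor pseudogene, had 1, 2 and 1 counts in GFP and 15, 14 and 11 in LMNB2. At such counts the fitted fold depends on the prior count. Both needed the LMNB2 libraries to pass the filter, as did lnc-LILRA4-1 (over LILRA4, LILRA5 and LILRB2, leukocyte immunoglobulin-like receptors, 3, 9 and 5 against 25, 31 and 22 counts), lnc-ZNF701-1 and lnc-U2AF2-1 (over the splicing factor gene U2AF2).

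Of the 37, 32 overlap a zinc finger gene, 3 another gene, 1 an immune receptor gene and 1 none, and 34 overlap a protein-coding gene. Among tested intervals, 32 of the 136 over zinc finger genes were called (median log2 fold change 0.72), and 3 of the 29 over other genes (0.53). By name, 19 of 74 named after a zinc finger gene were called, 8 of 57 with another lnc- name, 9 of 35 NONHSAG and 1 of 7 HSALNG. By length, 27 of 92 tested intervals over 10 kb were called, 9 of 74 of 1 to 10 kb and 1 of 7 up to 1 kb. The medians in the same order were 0.71, 0.64 and 0.49. Longer intervals collect more counts, and the part of depth in these shares was not tested. Of the tested intervals that hold a complete promoter window 24 of 76 were called (median 0.74), and of those that hold none 13 of 97 (0.59). Intervals of a locus can share reads, so these shares count intervals and not independent units, and the 37 lie in 18 loci.

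Along the chromosome, in bins of 0.5 Mb, the first bin from 52.0 Mb had 7 calls among 10 tested intervals and a median log2 fold change of 1.15 in LMNB2. Of these 7 calls 6 belong to the lnc-ZNF836-1 locus, whose intervals are linked by overlap and share reads. The bin from 58.0 Mb, which has the most tested intervals, had 8 of 49, of which 7 belong to the lnc-A1BG-2 locus, and a median of 0.59. The bin from 56.0 Mb had 2 of 21 and a median of 0.09, and holds the ZSCAN5A and EDDM13 intervals. From 54.5 Mb, where leukocyte receptor and NLRP genes lie, 1 of 21 intervals was tested and it was not called. The tested intervals below 0 in LMNB2 were 11, none of them called. They reached −0.32 in 3 overlapping intervals over the pseudogene NDUFV2P1, from 53223883, and included lnc-EDDM13-5 and lnc-ZNF582-5.

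Values at the limits of the rule were as follows. lnc-ZNF615-1, starting at 51972941 and so outside, had 2, 5 and 5 counts in GFP and 12, 14 and 11 in LMNB2. lnc-ZNF614-1, the first interval inside at 52003756, had 5, 3 and 2 in GFP and 8, 4 and 10 in LMNB2 and was not tested. No interval of these names in the region exceeded the limit on span.

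The highest small RNA levels per kb in GFP were found in a pair of intervals that hold a structural RNA copy. lnc-ZNF814-1 from 57865742 to 57868610 and NONHSAG026690.2 from 57854709 to 57870268, both annotated on the minus strand, contain a 5S ribosomal RNA interval of 157 bp (57867237 to 57867394) annotated on the plus strand. The 5S copy had 1826, 1924 and 3762 counts in the GFP libraries, 3467, 3298 and 3186 with LMNA, 2907, 2647 and 2814 with LMNB1, and 4501, 4997 and 3959 with LMNB2. The corresponding counts of lnc-ZNF814-1 were 1845, 1953 and 3798 in GFP and 4525, 5024 and 3977 in LMNB2, so 98.5 to 99.5% of its counts fell on the copy. The log2 fold change of the copy was 0.77 in LMNB2, 0.30 in LMNA and −0.03 in LMNB1, none of them called, and GFP replicate 3 stood apart from the other GFP libraries. Small RNA scaling factors ran from 0.63 to 1.31, both in GFP libraries. 5S ribosomal RNA is made by RNA polymerase III from many near-identical genes and pseudogenes, so the origin of these reads is uncertain. NONHSAG026722.2 (58362670 to 58366212), over the 5S pseudogene RNA5SP473 and ZNF497, had 63, 39 and 146 counts in GFP and 94, 104 and 94 in LMNB2.

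In LMNA and LMNB1 the intervals of lowest p, none called, had the following values. HSALNG0127299 (52190022 to 52211508), over PPP2R1A, which encodes a scaffold subunit of protein phosphatase PP2A, had 0.18, 0.213 and 0.208 CPM in GFP and 0.299, 0.221 and 0.199 in LMNA, a log2 fold change of 0.23 ± 0.21 (SE). lnc-ZNF772-1 (57455422 to 57477561), over ZNF772, had 0.215, 0.25 and 0.254 in GFP and 0.124, 0.145 and 0.164 in LMNA (−0.69 ± 0.20), with LMNA below GFP in every library. lnc-ZNF432-2 (52048784 to 52095763, over ZNF432 and ZNF841) was at −0.48 ± 0.25 in LMNA. In LMNB1, below GFP and with an edgeR p of 0.0337 (unadjusted), lnc-ZNF613-5 (52008286 to 52024158), over ZNF614, had 0.0725, 0.0857 and 0.122 CPM against 0.155, 0.147 and 0.13 in GFP, a log2 fold change of −0.55 ± 0.26, and every LMNB1 library lay below the GFP libraries. On the higher side lnc-DUXA-4 (57293057 to 57294494), over ZNF460, had 0.23, 0.202 and 0.238 CPM in LMNB1 against 0.206, 0.191 and 0.118 in GFP (0.38 ± 0.25). lnc-ZNF460-1 (57297526 to 57300389) was at 0.30 ± 0.20 and lnc-A1BG-1 (58258746 to 58278649, over ZNF544) at 0.19 ± 0.18. NONHSAG026716.2 from 58309004 was at 0.33 ± 0.24 in LMNB1. Within lnc-ZNF836-1, the model from 52113079 was at 0.23 ± 0.22 in LMNA and the one from 52113332 at 0.25 ± 0.23 in LMNB1. Also below GFP, NONHSAG026435.2 (53066666 to 53109924), over ZNF160 and ZNF415, was at −0.41 ± 0.22 in LMNB1 and −0.46 ± 0.22 in LMNA, contrasts that share the GFP libraries, and lnc-ZNF550-1 (57541814 to 57559888) was at −0.32 ± 0.24 in LMNB1. lnc-ZNF761-5 (53431958 to 53480428), over ZNF761 and ZNF813, had 0.292, 0.309 and 0.27 CPM in GFP, and lay below it in every LMNA library (0.23, 0.2 and 0.252, log2 fold change −0.33 ± 0.18) and every LMNB1 library (0.242, 0.233 and 0.255, −0.24 ± 0.18).

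Among other intervals of high level per kb, NONHSAG026547.2 (54973791 to 54974442), over NLRP2, an inflammasome-related NLR gene, had 0.112, 0.118 and 0.0507 CPM in GFP and 0.127, 0.109 and 0.107 in LMNB2 (log2 fold change 0.31 ± 0.34), and it was not called in any lamin. lnc-VN1R2-1 (53223892 to 53224676) had 0.103, 0.14 and 0.0789 CPM in GFP and 0.0965, 0.0768 and 0.071 in LMNB2 (−0.32 ± 0.29), also not called. NONHSAG026526.2 (54461282 to 54461553), over LENG8, was not tested, with 6, 6 and 2 counts in GFP and 3, 5 and 2 in LMNB2.

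Likeness across libraries was described for lnc-ZNF836-1, which had the lowest p in the joint test. Among 23 loci at or above the median level of all features, its log2 level over the 12 small RNA libraries was most like that of lnc-A1BG-2 (Pearson r = 0.96), lnc-ZNF761-5 (53431958 to 53480428, r = 0.95) and lnc-ZNF583-4 (56368095 to 56379852, r = 0.93). The libraries fall into LMNB2 and the rest, and the values share library and depth, so these are descriptions of that split.

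Higher small RNA levels in LMNB2 were also called in lncRNA intervals elsewhere on chromosome 19. In the zinc finger cluster of the short arm (19p12) 5 of 33 tested intervals (15.2%) were called higher and 0 lower, with a median log2 fold change of 0.42. Over the lncRNA intervals of chromosome 19 that start before base 52000000 and are not in that cluster, 158 of 1318 were called higher and 0 lower, again with a median of 0.42, beside 37 of 173 (21.4%) and 0.66 in 19q13.4. On the other chromosomes 353 of 28926 were called higher (1.22%) and 207 lower, with a median of −0.05. In LMNB2 against LMNA 24.9% of the tested intervals of 19q13.4 were called higher (median 0.74), beside 24.2% in 19p12 (0.70). Against LMNB1 it was 26.0% (0.65), beside 15.2% in 19p12 (0.66). Over the chromosome 19 intervals before base 52000000 and outside 19p12 the shares were 13.9% and 15.3%, each with a median of 0.45. The differences between 19q13.4 and these other intervals of chromosome 19 were not tested. The LMNB2 gene lies at the other end of the chromosome, on the short arm, and the 8 called small RNA intervals over it may be among the 158.

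ATAC-seq, which counts transposase insertions as a measure of accessible chromatin, had enough counts to test 599 of the 608 windows (245 loci). The median window of the 608 had a mean of 249.2 counts per library. No window was called in LMNA, LMNB1 or LMNB2 against GFP, between any pair of lamins, or in either joint test (edgeR's quasi-likelihood test over 163786 windows), and DESeq2 called none against GFP or jointly. Among all windows 0.000611% were called higher with LMNA and 0.0% lower, 0.00183% higher with LMNB1 and 0.00122% lower, and 0.00122% higher with LMNB2 and 0.00122% lower, so few calls were made anywhere. Over the LMNB2 gene itself 2 of 8 tested windows were called in LMNB2, though the 8 had log2 fold changes of 8.71 to 10.89. Whether reads from the overexpressed LMNB2 sequence contribute to these counts was not tested, so no change in chromatin there is read from them. A window without a call is not shown to be unchanged. Jointly, 0.0421% of all windows were called over the 4 groups and 0.0916% over the lamins. In LMNB1 against LMNA 0.221% of all windows were called lower and 0.00183% higher, and in LMNB2 0.00122% were called higher and 0.00183% lower against either of them. Between lamins, 9 windows of the region were at an unadjusted p under 0.05 in LMNB1 against LMNA, 33 in LMNB2 against LMNA and 28 in LMNB2 against LMNB1, beside 5.37%, 7.17% and 4.98% of all windows. At an unadjusted p under 0.05 there were 14, 27 and 33 of the 599 in LMNA, LMNB1 and LMNB2, against 5.19%, 4.78% and 5.72% of all windows. The median log2 fold changes were 0.00, 0.00 and −0.05, with a median SE of 0.14 in each. Their 5th to 95th percentiles were −0.39 to 0.30, −0.38 to 0.32 and −0.44 to 0.22. In LMNB2, 213 of the 599 were above 0, 35.6% beside 49.1% of all windows. In 40 every LMNB2 library lay below every GFP library (4.72% of all windows), and in 12 every one lay above (5.59% of all windows). The mitochondrial share was 24.5 to 30.7% in the LMNB2 libraries and 39.9 to 47.5% in GFP, and scaling without mitochondrial windows gave a median of −0.04 in LMNB2. With scaling over all windows, shares above 0 in LMNB2 were also low elsewhere on chromosome 19. Among its lncRNA windows before the region and outside 19p12, 40.9% of 4668 were above 0, with a median of −0.03. In 19p12 it was 41.0% of 222, with a median of −0.05. For lncRNA windows of other chromosomes the share was 49.8%. Differences between the region and these windows were not tested.

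The intervals whose small RNA was higher in LMNB2 differed little in ATAC level. lnc-ZNF836-1 had 22.6, 22.2 and 20.8 CPM in GFP and 21.3, 21.3 and 20.5 in LMNB2, a log2 fold change of −0.06 ± 0.05 (SE). lnc-ZNF83-2 had 9.65, 9.97 and 9.87 in GFP and 9.7, 10.2 and 9.86 in LMNB2 (0.01 ± 0.06). lnc-A1BG-2 had 13.7, 12.2 and 11.1 and 12.7, 10.5 and 12.3 (−0.05 ± 0.07). In these 3 the groups overlapped. lnc-ZNF417-3 had low ATAC levels, 0.253, 0.223 and 0.201 CPM in the GFP libraries, 0.14, 0.125 and 0.229 with LMNA, 0.266, 0.303 and 0.299 with LMNB1 and 0.268, 0.161 and 0.24 with LMNB2 (−0.02 ± 0.26). Over the 37 called intervals the ATAC log2 fold change in LMNB2 ran from −0.13 to 0.23 with a median of −0.03, and none had an unadjusted p under 0.05. The 95% intervals of these changes together spanned −0.53 to 0.50. ATAC levels are totals over whole windows, and the 37 intervals had a median span of 18987 bp, up to 151910 bp. A change confined to a short part of such a window was not tested.

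**Figure D4:**
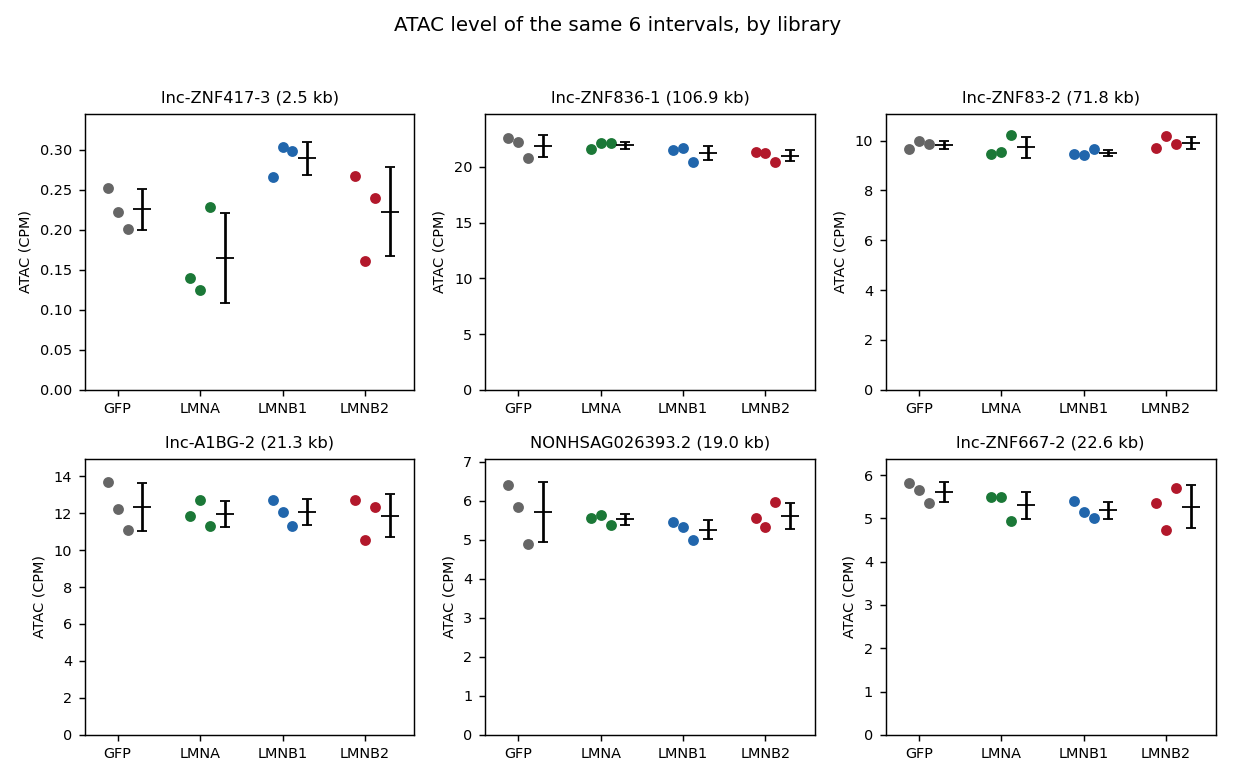
ATAC level (CPM, axes from 0) of the same 6 intervals in each library. Points are libraries and the dash with its bar is the mean ± SD (n = 3). The LMNB2 points overlap those of GFP in every panel, for example 20.46 to 21.32 CPM against 20.79 to 22.61 in lnc-ZNF836-1.

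**Figure D5:**
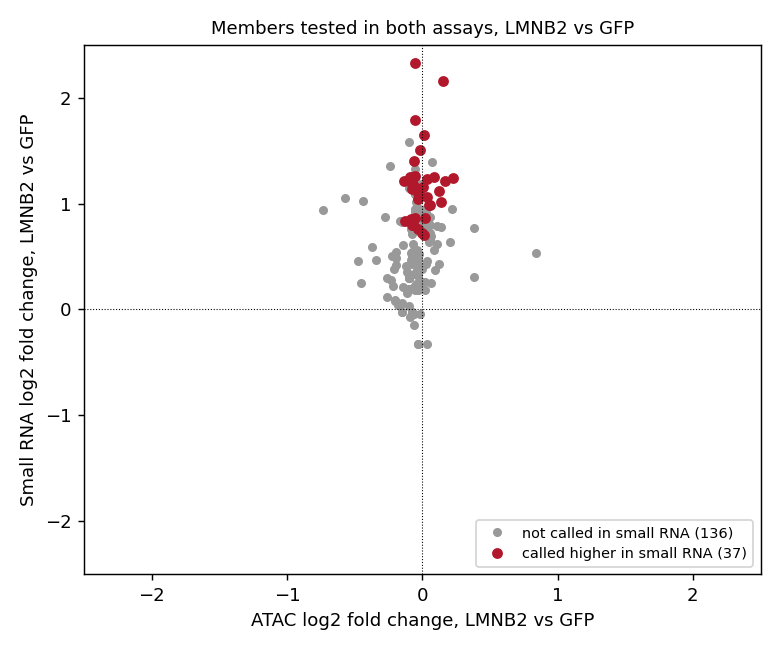
Log2 fold change in LMNB2 against GFP for the 173 intervals tested in both assays, ATAC on the horizontal and small RNA on the vertical axis, with equal ranges. Red points are the 37 intervals called higher in small RNA. The points run from −0.32 to 2.32 on the small RNA axis, and the red points from −0.13 to 0.23 on the ATAC axis.

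Across the 173 intervals (68 loci) tested in both assays the log2 fold changes in LMNB2 had a Pearson r of 0.12 and a Spearman rho of 0.22. The values were −0.07 and −0.06 in LMNA and 0.01 and −0.08 in LMNB1. In GFP the log2 levels per kb had an r of 0.13 and a rho of 0.18. Overlapping intervals share reads in both assays, so these are descriptions across intervals.

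The most accessible intervals per kb in GFP were under 1 kb long. The lnc-A1BG-2 interval from 58326810 to 58327266, which overlaps the ZSCAN22 window printed above, had 10.97, 9.07 and 7.44 CPM in GFP and 9.07, 7.55 and 8.94 in LMNB2. lnc-TRIM28-13 (58558655 to 58559082) overlaps the promoter window of UBE2M, which encodes a NEDD8-conjugating enzyme, and had 8.7, 8.37 and 7.51 CPM in GFP and 7.75, 7.64 and 7.33 in LMNB2. lnc-ZNF784-4, lnc-SYT5-2 and lnc-TMC4-1 followed. For all 5 the log2 fold changes in LMNB2 lay between −0.13 and 0.03, none called. Intervals with a complete promoter window had a median GFP level of 0.413 CPM per kb of ATAC window, and those without 0.137 CPM per kb. The corresponding small RNA medians were 0.00411 and 0.00311 CPM per kb.

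The ATAC windows of lowest p per lamin, among those at or above the median level of all windows and none of which passed the adjustment, had the following values. lnc-ZNF329-4 (58083817 to 58090623), over the SCAN domain gene ZSCAN18, had 0.928, 1.28 and 1.1 CPM in the GFP libraries, 0.805, 0.888 and 0.82 with LMNA, 0.805, 1.01 and 0.936 with LMNB1 and 0.813, 0.765 and 0.796 with LMNB2. Its LMNB2 log2 fold change was −0.48 ± 0.14 with an edgeR p of 0.00151 and an adjusted p of 0.815, and the LMNB2 libraries lay below the GFP libraries. NONHSAG026645.2 (56707267 to 56791222), over the imprinted zinc finger gene ZIM2, was at −0.34 ± 0.11 in LMNB2 and lnc-ZNF582-5 (56274513 to 56314858) at −0.21 ± 0.06. In LMNB1, with an edgeR p of 0.0053 (unadjusted), lnc-SMIM17-2 (56690660 to 56761160) had 2.92, 3.68 and 4.16 CPM against 4.09, 4.29 and 4.92 in GFP (−0.31 ± 0.10), the ranges overlapping, and the shorter lnc-SMIM17-2 window from 56706799 was at −0.25 ± 0.11 in LMNA. lnc-ZNF813-3 (53538119 to 53539549, over ZNF331) was at −0.20 ± 0.09 in LMNB1, and the lnc-LILRA4-1 window from 54323821 at −0.21 ± 0.11 in LMNA and −0.22 ± 0.11 in LMNB1. In the other direction NONHSAG026634.2 (56536220 to 56538354), over ZFP28, had 2.82, 2.93 and 2.68 CPM in LMNA against 2.51, 2.42 and 2.35 in GFP (0.21 ± 0.09), with the groups apart. lnc-C19orf85-2 (55455871 to 55461649, over ISOC2) was at 0.17 ± 0.08 in LMNA and 0.17 ± 0.07 in LMNB1, and NONHSAG026737.2 (58499465 to 58509853, over the bile acid and fatty acid CoA ligase gene SLC27A5) at 0.16 ± 0.07 and 0.18 ± 0.07. The pairs of values share the GFP libraries. Among windows above GFP in LMNB2 was lnc-LILRB3-2 (54209066 to 54209443), with 0.909, 1.01 and 0.707 CPM in GFP and 1.19, 0.867 and 1.18 in LMNB2 (0.30 ± 0.15), which was not called, and at 0.33 ± 0.15 in LMNB1. lnc-ZNF534-1 (52453556 to 52458861, over ZNF578) was at 0.22 ± 0.11 in LMNB2 and NONHSAG026459.2 (53423002 to 53425178, over ZNF765) at 0.24 ± 0.13.

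The flanks of the intervals were tested as separate windows of 500, 5000 and 50000 bp. Of the 500 bp flanks 918 (of 563 intervals) were tested, of the 5000 bp flanks 1216 and of the 50000 bp flanks 1207, and edgeR called 0 in every comparison with GFP. Over all windows of these kinds 0.0622%, 0.0494% and 0.0254% were called in LMNB2, 0.0483%, 0.00856% and 0.0111% in LMNB1, and 0.000435%, 0.000571% and 0.00684% in LMNA. At an unadjusted p under 0.05, LMNB2 had 48, 86 and 148 flanks of these widths, beside 5.74%, 6.06% and 7.5% of all such windows. LMNA had 58, 48 and 47 (5.28%, 5.64% and 6.14% of all), and LMNB1 had 50, 64 and 75 (5.66%, 5.67% and 5.77% of all). The median log2 fold change in LMNB2 was −0.02, −0.06 and −0.05, beside 0.01, 0.00 and −0.01 over all windows of each kind. In LMNA and LMNB1 it lay between −0.02 and 0.00. Many of the widest flanks overlap one another across this dense region.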

How the data were processed

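Small RNA-seq (mirVana PARIS kit) and ATAC-seq (Active Motif kit) libraries were sequenced on a NovaSeq X Plus, per the labels' protocols, with 3 libraries per group and assay. The authors deposited raw read counts per annotated feature for each library, and for ATAC-seq also per flanking window (ATAC windows reach 125 bp beyond the feature on either side). The build is GRCh38, per the submitters' processing notes. The aligner, the counter, its strand setting and its treatment of reads with several matches are not given in the sources used here. These matter in 19q13.4, where zinc finger genes are similar in sequence, where intervals overlap and share reads, and where the table holds no protein-coding genes.

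Counts were fitted with edgeR 4.0.16 (TMM scaling, filterByExpr, robust quasi-likelihood, prior count 2) in R 4.3.3, 12 libraries per fit, over all features of an assay, with Benjamini-Hochberg adjustment over all features tested and a threshold of 0.05. Each kind of flank had its own fit. CPM are the deposited counts divided by TMM-scaled library totals. DESeq2 1.42.0 was an alternative, and the steps were tested on simulated data. RefSeq promoter windows and gene spans (GRCh38.p14) were matched by position. The members, lists and named intervals were chosen with earlier results of these data known. Named intervals were, per lamin against GFP, the loci of lowest p in each direction at or above the median level of tested features, and those of lowest p in the joint test. Each such locus was represented by its interval of lowest p. The loci of highest level per kb in GFP were named too, each represented by its interval of highest level, tested or not. lnc-RPL28-1, lnc-ZNF606-1, lnc-LILRA4-1, lnc-ZNF701-1, lnc-U2AF2-1, lnc-EDDM13-5 and lnc-ZNF614-1 were named after their values were seen. No column was left out. The SE of a log2 fold change was derived from the test statistic and the change fitted without the prior count. The changes printed include the prior count. Intervals of log2 fold changes cover the spread between libraries only. An interval that meets the naming rule is not reported here.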

Additional observations from a re-analysis of the deposited data

How the results depend on the processing

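No interval was called lower in LMNB2, and none was called in LMNA or LMNB1 small RNA or in ATAC-seq, under any alternative run. The 37 small RNA calls in LMNB2 became 3 with only the libraries compared, 16 with 1 interval per locus, 8 at an adjusted p under 0.01, and 3 to 51 when 1 library was left out. The 38 calls of the joint test of 4 groups became 23 with total counts only, 70 with no filter, 15 with 1 interval per locus, 13 at 0.01, and 3 to 68 by library. The 48 of the 3 lamins became 21 with total counts only, 75 when GFP was left out of the fit, 18 with 1 interval per locus, 13 at 0.01, and 7 to 65 by library. The median small RNA log2 fold change in LMNB2 was 0.87 with total counts only, 0.45 with no filter, 0.76 with DESeq2, 0.75 over intervals that overlap no other feature class, and 0.63 to 0.76 by library. In LMNA it was 0.03 with only the libraries compared, −0.07 with 1 interval per locus, and −0.02 to 0.04 by library. In LMNB1 it was 0.14 with total counts only and −0.05 to 0.05 by library. ATAC medians with total counts only were 0.08 in LMNA, 0.19 in LMNB1 and 0.06 in LMNB2, and leaving out 1 library moved that of LMNB1 to between −0.02 and 0.03. Total counts also moved the median of all features. In small RNA it was 0.19 in LMNB2 and 0.11 in LMNB1, beside −0.04 and −0.05 with TMM. In ATAC it was 0.09 in LMNA, 0.19 in LMNB1 and 0.11 in LMNB2. Relative to the median of all features, the region stood at 0.68 in LMNB2 small RNA (0.69 with TMM) and −0.04 in LMNB2 ATAC. lnc-ZNF83-2 in LMNB1 ran from −0.01 (without LMNB1 replicate 2) to 0.53 by library, never called. The cause of these differences was not tested. Whether replicate numbers pair the libraries was not settled. Deviations of same-numbered libraries correlated between −0.05 and 0.26 in small RNA (median 0.04) and between −0.11 and 0.28 in ATAC (median 0.02). In each assay 7 of 12 libraries correlated best with their own number. With the replicate block the calls were 32 in LMNB2, 31 and 38 in the joint tests, and 0 in ATAC. Depth limits the small RNA results, since 435 of 608 intervals were too low to test.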

Other observations

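Other annotated features of the same stretch of chromosome 19 were described by class. Of the 253 lncRNA intervals there that carry other names, 114 were tested in small RNA-seq. Of these, 28 were called higher and 0 lower in LMNB2 against GFP (edgeR's quasi-likelihood test), with a median log2 fold change of 0.61. Over all features 1.91% were called higher and 0.752% lower, and of the intervals of the report 37 of 173 were called higher (median 0.66). In LMNA and LMNB1 none of the 114 was called, with medians of −0.08 and −0.15. Many of these intervals overlap those of the report and share their reads.

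MicroRNAs of the region were close to absent: 6 of 106 passed the filter and 0 were called in any lamin. Their median log2 fold change was 0.39 in LMNA, 0.25 in LMNB1 and 0.17 in LMNB2. Of 39 signal recognition particle RNA copies 2 were tested and not called (median −0.37 in LMNA and in LMNB1, 0.40 in LMNB2). In ATAC-seq no feature of any class of the region was called, and the window over the 5S ribosomal RNA copy had a log2 fold change of 0.65 in LMNB2, also not called.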
